A study of Mus musculus with 21 samples.

Results

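The genes described here are 7 genes of testicular steroid hormone production and Leydig cell identity, Hsd3b1, Star, Insl3, Lhcgr, Nr5a1, Hsd17b3 and Fdx1, out of 24495 gene rows measured. They were chosen by name on their known roles and on their levels in these same libraries, seen in an earlier analysis, so their values are described and not tested. The study sorted male germ cells by Oct4-GFP fluorescence, a reporter of the germ cell gene Pou5f1, from mouse testes of mixed strain background, and sequenced total RNA. All animals came from crosses of Tex15 heterozygotes. The 7 groups, of 3 biological replicates each, were Tex15 knockout (KO) and heterozygous (HT) cells at 2 embryonic ages, day 16.5 (E16.5) and day 18.5 (E18.5), and KO, HT and wild-type (WT) cells at postnatal day 2 (D2.5 in the sample names). The embryonic controls were therefore heterozygotes, and each library was a bulk of sorted cells.

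Leydig cells are the steroid-making cells between the testis cords. Luteinizing hormone binds LHCGR on these cells and raises cAMP, and the protein STAR then moves cholesterol into mitochondria, where CYP11A1 cuts its side chain with electrons passed on by ferredoxin (FDX1). HSD3B enzymes and CYP17A1 turn the product into androstenedione, HSD17B3 makes testosterone from it, and the nuclear receptor NR5A1 (SF-1) switches on many of these genes. INSL3 is the peptide hormone of testis descent. In the fetal mouse testis, Hsd17b3 is known from Sertoli cells, the somatic cells inside the cords, which also express Nr5a1.

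Hsd3b1 has close relatives beside it in the genome, and reads from a shared stretch can be split between them. The first 90 coding bases of Hsd3b1 and Hsd3b6, both on chromosome 3, are shown because they carry this limit, with the 12 bases that differ in capitals (GENCODE M21 models, GRCm38).
Hsd3b1: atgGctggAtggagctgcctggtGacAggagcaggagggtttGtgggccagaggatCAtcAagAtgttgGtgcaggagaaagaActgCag
Hsd3b6: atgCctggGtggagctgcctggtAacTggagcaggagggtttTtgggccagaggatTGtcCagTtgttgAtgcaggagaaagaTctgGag
The coding sequences, of 1119 bases each, were 89.99% identical. Of the 31-base words of Hsd3b1 transcripts, 13.2% also occurred in any of 14 other genes, and 5.86% occurred in Hsd3b6. Insl3 overlaps exons of Jak3 on the same strand, and 63.1% of its 31-base words were shared with Jak3. No such word of Nr5a1 or Hsd17b3 was shared, and at most 1.22% of those of Star, Lhcgr and Fdx1 were.

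Promoter sequences before the transcription start were available from RefSeq (GRCm38.p6) for 5 of the 7 genes, all but Star and Nr5a1. They were searched for AGGTCA, the core of the NR5A1 binding site, on both strands over 250 bases. The 2 promoters below are those of the gonadotropin receptor gene, the only one of the 5 with a match, and of Hsd3b1, which had none. The match is in capitals.
Lhcgr, chr17:88792015-88792264, minus strand: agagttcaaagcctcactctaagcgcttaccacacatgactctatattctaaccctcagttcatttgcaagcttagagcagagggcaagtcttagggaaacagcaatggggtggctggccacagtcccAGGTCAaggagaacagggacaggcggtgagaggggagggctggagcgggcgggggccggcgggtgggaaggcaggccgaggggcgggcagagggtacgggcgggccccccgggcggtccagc
Hsd3b1, chr3:98859795-98860044, minus strand: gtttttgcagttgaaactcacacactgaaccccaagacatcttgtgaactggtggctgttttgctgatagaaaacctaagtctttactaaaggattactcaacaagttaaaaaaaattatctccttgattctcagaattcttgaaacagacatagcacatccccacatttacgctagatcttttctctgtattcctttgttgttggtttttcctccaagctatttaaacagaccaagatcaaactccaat
The Lhcgr match began 122 bases before the start. AGGTCA occurred in 14.02% of 32851 mouse promoters of this length. The longer form AAGGTCA, which contains it, occurred in 0 of the 5 and in 4.08% of all.

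Gene counts per library were 6063632 to 11884109, lowest at D2.5, so 3 counts corresponded to 0.224 to 0.556 CPM (counts scaled to a common gene total with TMM factors). Tex15 had 30 to 41 counts in the embryonic KO libraries and 86 to 131 in the D2.5 KO libraries, against 7218 to 13658 in HT libraries and 19249 to 25330 in WT libraries. Summed over 10 germ cell markers, levels were 3229 to 7882 CPM in every library, and over the 6 genes that define Leydig cells (Cyp11a1, Cyp17a1, Star, Hsd3b1, Insl3 and Lhcgr) 12.6 to 48.9 CPM. The Leydig label thus names what the genes are known for, while the sorted cells carried most of the germ cell markers. At D2.5 up to 2 of the 10 were at 0 counts in a library, as in KO replicate 3. In such bulk samples, fewer cells of a type and less RNA per cell cannot be told apart.

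**Figure D1:**
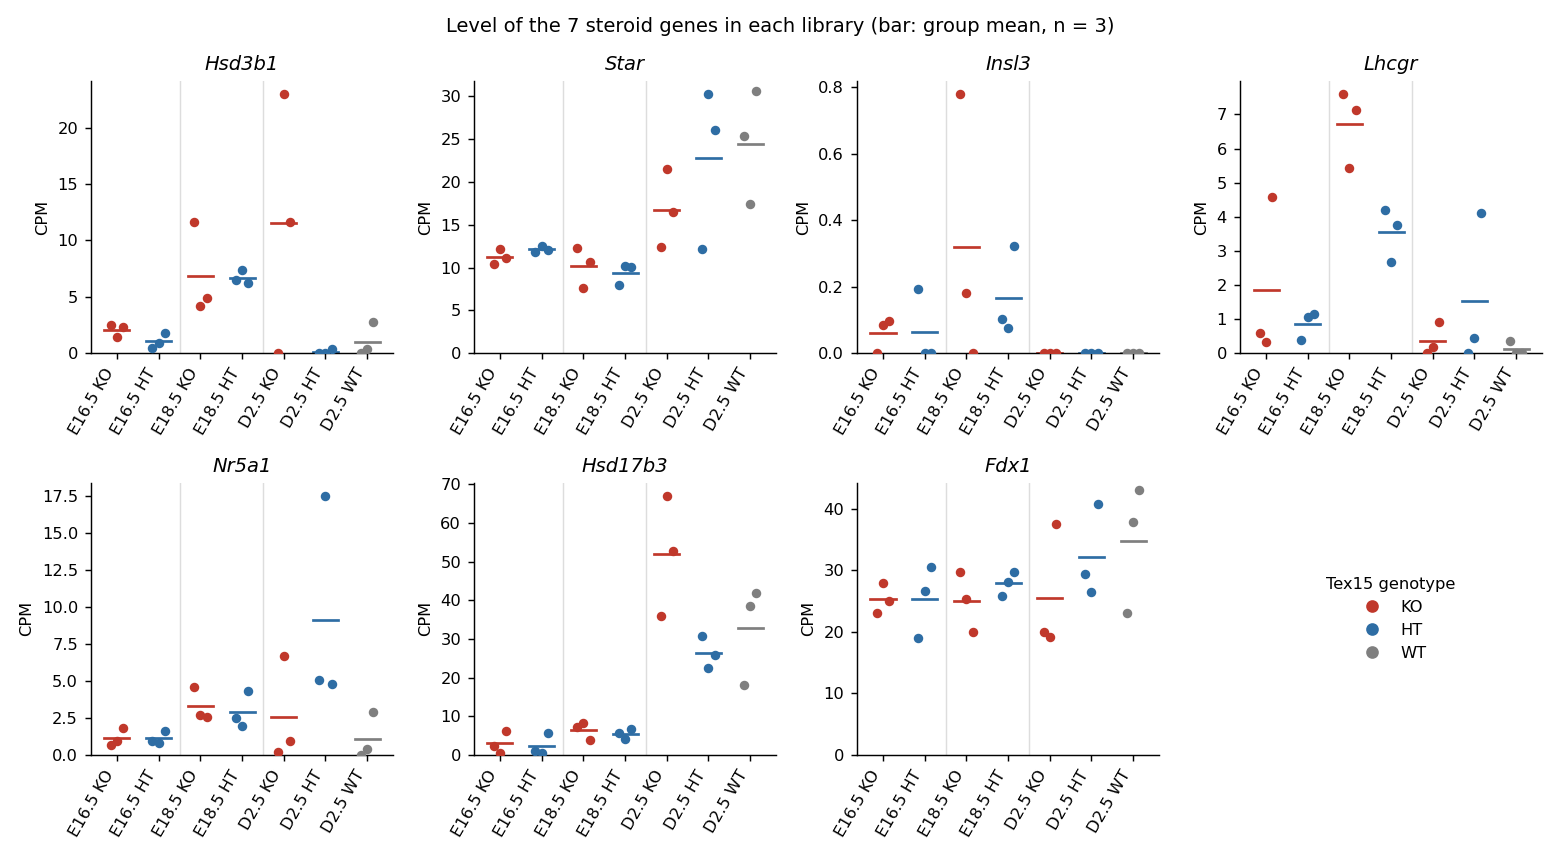
Level of each of the 7 genes (CPM, linear axis, own scale per gene) in the 21 libraries, by age and Tex15 genotype; each point is a library and each bar a group mean (n = 3). Hsd3b1 in the D2.5 KO group spans 0 to 22.98 CPM, Hsd17b3 is highest at D2.5, and Fdx1 has similar means in all 7 groups.

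The 7 genes did not share a pattern over the 21 libraries. Per kilobase of annotated exon, the median level was 8.55 CPM for Fdx1, 5.25 for Hsd17b3 and 2.96 for Star. It was 1.24 for Hsd3b1, 0.458 for Nr5a1, 0.121 for Lhcgr and 0 for Insl3. Fdx1, Star and Hsd17b3 were counted in every library. Hsd3b1 and Lhcgr were each at 0 in 4 libraries, Nr5a1 in 1 and Insl3 in 13.

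Hsd3b1 encodes the 3 beta-hydroxysteroid dehydrogenase of gonads and adrenals. At E16.5 it had 29, 17 and 24 counts in KO libraries (2.505, 1.45 and 2.29 CPM), against 5, 10 and 19 in HT libraries (0.483, 0.885 and 1.82 CPM). The groups overlapped, since 1 HT library lay above the lowest KO library, and the log2 fold change was 0.96 (SE 0.60). At E18.5 it had 119, 46 and 52 counts in KO libraries (11.6, 4.15 and 4.88 CPM), against 63, 99 and 78 in HT libraries (6.47, 7.39 and 6.26 CPM). The means were 6.88 ± 4.10 CPM in KO and 6.70 ± 0.602 CPM in HT cells (SD, n = 3 each). The KO libraries here lay on both sides of the narrow HT range, and the log2 fold change was 0.02 (SE 0.33), or -0.57 without KO replicate 1.

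At D2.5 Hsd3b1 was uneven between the KO libraries, with 0, 124 and 63 counts (0, 22.98 and 11.6 CPM), against 0, 0 and 2 in HT libraries (0, 0 and 0.344 CPM) and 0, 2 and 16 in WT libraries (0, 0.368 and 2.74 CPM). The means were 11.5 ± 11.5 CPM in KO, 0.115 ± 0.198 in HT and 1.04 ± 1.49 in WT cells (SD, n = 3 each). KO replicate 1 had no count, so KO overlapped with both other genotypes. Over pooled libraries, the KO to HT ratio was 102 (95% interval 27.9 to 851) and the KO to WT ratio 10.8 (6.63 to 18.6). These intervals cover counting error only and leave out the spread between replicates, which ran from 0 to 124 counts within KO. The fitted log2 fold change was 6.42 (SE 1.81) for KO against HT and 3.48 (SE 1.495) for KO against WT. The first rests on 2 HT counts and ran from 5.45 to 9.04 when each library was left out in turn, and that against WT from 2.52 without KO replicate 2 to 5.81 without WT replicate 3. For HT against WT it was -2.94 (SE 1.71), running from -5.56 without HT replicate 3 to -0.61 without WT replicate 3.

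The neighbouring genes held few counts at D2.5. Hsd3b3 had 0, 5 and 6 counts in KO libraries, in the same 2 libraries as Hsd3b1, and 0 in all 6 HT and WT libraries. Hsd3b6, which encodes the isoform known from adult Leydig cells, had 0 counts in the KO libraries, 0, 2 and 0 in the HT libraries and 0 in the WT libraries. At E18.5 it had 15, 39 and 14 counts in KO libraries, against 26, 29 and 17 in HT libraries. Hsd3b6 was thus counted in every E18.5 library and in 1 of 9 at D2.5.

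Marker genes of other testis cells differed between the same D2.5 libraries. KO replicates 1, 2 and 3 had 331, 815 and 513 summed CPM of 10 stromal markers, against 337, 333 and 219 in HT libraries and 366, 507 and 197 in WT libraries. Over 12 Sertoli markers the KO libraries had 147, 314 and 305, against 189, 162 and 151 in HT and 94.3, 179 and 228 in WT. The 2 KO libraries with Hsd3b1 counts thus had the highest sums of both lists, while WT replicate 2 had 507 of stromal markers and 2 Hsd3b1 counts. None of the tested markers of either list passed the test in KO against HT or against WT at D2.5, and their part in the Hsd3b1 values was not tested.

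Star, the cholesterol carrier of the first step, was counted at 67 to 199 per library. At E16.5 it had 10.4, 12.2 and 11.1 CPM in KO, against 11.9, 12.5 and 12.1 CPM in HT cells. At E18.5 it had 12.3, 7.67 and 10.6 CPM in KO, against 8.01, 10.2 and 10.03 CPM in HT cells. At D2.5 it had 12.4, 21.5 and 16.4 CPM in KO, against 12.2, 30.3 and 26.1 in HT and 25.4, 17.5 and 30.7 in WT cells. Genotypes overlapped at every age, with log2 fold changes of KO against HT of -0.11 (SE 0.22), 0.11 (SE 0.22) and -0.46 (SE 0.49) in order of age. In D2.5 KO replicate 1, where the Leydig marker sum was lowest, Star gave 12.4 of 12.6 CPM. It also made up most of some higher sums, with 30.7 of 36.0 CPM in D2.5 WT replicate 3. In E18.5 KO replicate 1 it gave 12.3 of 47.3 CPM.

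Fdx1, the electron donor, was the most even of the 7. It had 22.98, 27.9 and 24.9 CPM in KO, against 18.9, 26.6 and 30.5 in HT cells at E16.5. At E18.5 it had 29.7, 25.4 and 19.996 CPM in KO, against 25.9, 28.1 and 29.8 in HT cells. At D2.5 it had 19.99, 19.1 and 37.5 CPM in KO, against 29.4, 26.4 and 40.7 in HT and 23.1, 37.9 and 43.0 in WT cells. Group means ran from 25.0 to 34.7 CPM, and each neighbouring pair in their order overlapped. The genotype differences on the log2 scale were 0.00, -0.16 and -0.33 for KO against HT at the 3 ages in order.

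Lhcgr, the receptor through which luteinizing hormone acts, was the member whose genotypes did not overlap at E18.5. It had 78, 60 and 76 counts in KO libraries (7.60, 5.42 and 7.13 CPM), against 41, 36 and 47 in HT libraries (4.21, 2.69 and 3.77 CPM). The means were 6.72 ± 1.15 CPM in KO and 3.56 ± 0.783 CPM in HT cells (SD, n = 3 each), a log2 fold change of 0.92 (SE 0.27). All 3 KO libraries lay above all 3 HT libraries, as they did for 8.18% of the 18199 genes tested. The fold change ran from 0.74 to 1.05 as each library was left out.

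At E16.5 Lhcgr had 7, 4 and 48 counts in KO libraries, against 4, 12 and 12 in HT libraries. KO replicate 3 set the mean: the log2 fold change was 1.09 (SE 1.03) with it and -0.87 without it. At D2.5 there were 0, 1 and 5 counts in KO, against 0, 3 and 24 in HT and 2, 0 and 0 in WT libraries. Most of these libraries were at or under 3 counts, and the gene did not pass the low-count filter at that age.

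Macrophage and blood markers stood apart in the same E18.5 libraries, with 86.9 to 106 summed CPM over 12 markers in KO, against 48.9 to 52.5 in HT libraries. Of the 6 that could be tested, 2 were higher in KO cells and 0 lower, and the haemoglobin genes Hbb-b1 and Hba-a1 were at 0 in all libraries. Sertoli markers overlapped at E18.5, with 60.2 to 78.2 CPM in KO and 67.9 to 81.9 CPM in HT libraries. Of 8 endothelial markers 1 was higher and 0 lower in KO cells, with sums of 133 to 192 CPM in KO and 140 to 153 CPM in HT libraries. Of 10 germ cell markers 0 were higher and 1 lower, and 0 of the tested Sertoli and stromal markers passed. Over all genes tested at E18.5, 2.07% were higher and 0.0659% lower in KO cells. The part of the marker lists in the Lhcgr values was not tested.

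**Figure D2:**
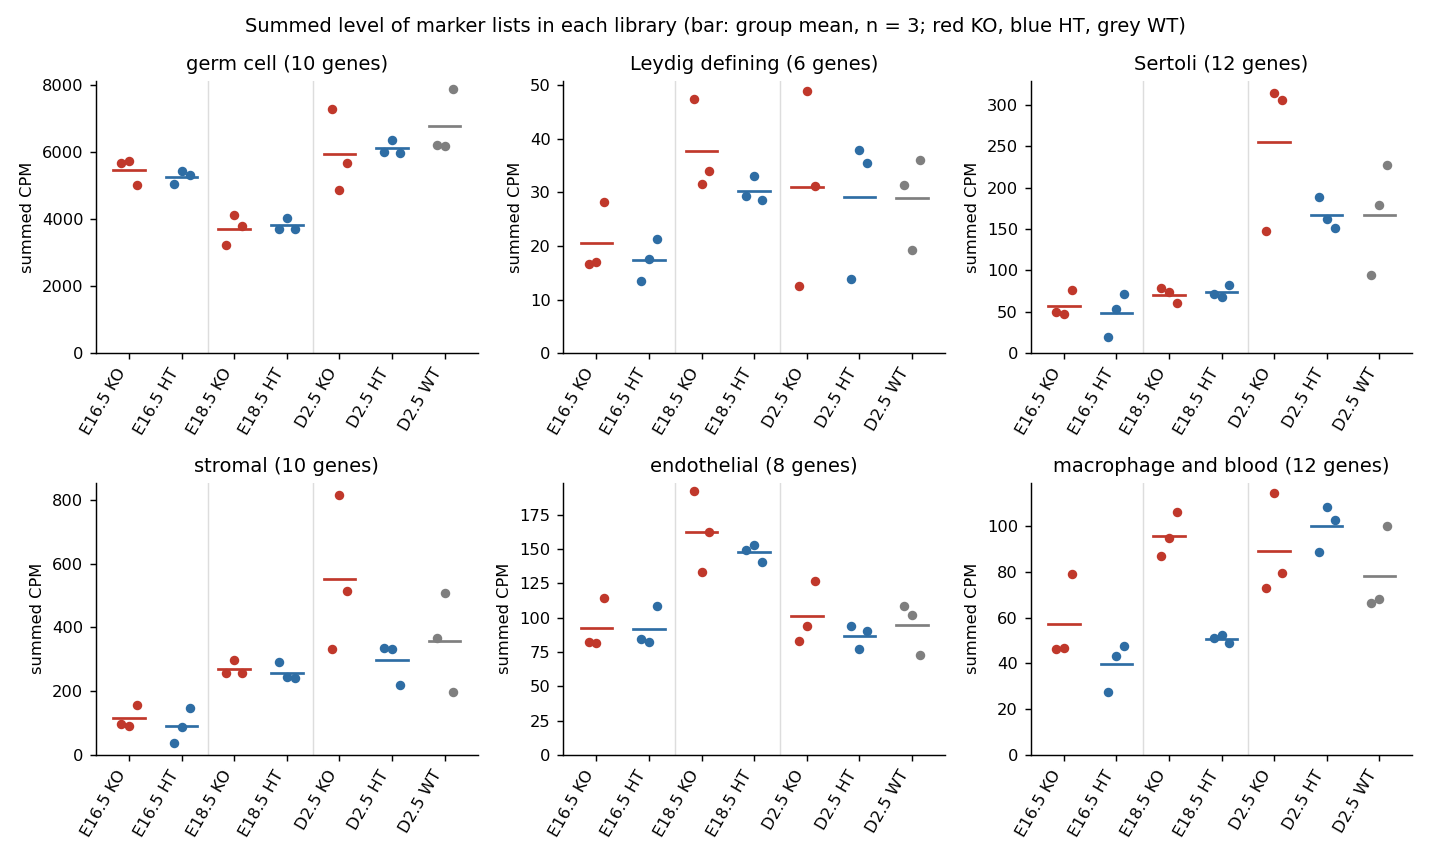
Summed level (CPM, linear axis) of 6 marker gene lists in each of the 21 libraries; points are libraries, bars group means (n = 3), red KO, blue HT and grey WT. Macrophage and blood markers lie at 86.9 to 106 in E18.5 KO against 48.9 to 52.5 in HT libraries, and 2 D2.5 KO libraries have the highest Sertoli and stromal sums.

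Nr5a1, the transcription factor, had 8, 11 and 19 counts in KO and 10, 9 and 17 in HT libraries at E16.5. At E18.5 it had 47, 30 and 27 counts in KO and 24, 26 and 54 in HT libraries. The genotypes overlapped at both ages, with log2 fold changes of 0.03 (SE 0.59) and 0.16 (SE 0.37), both of either sign as each library was left out. At D2.5 it had 1, 36 and 5 counts in KO (0.180, 6.67 and 0.924 CPM), against 28, 115 and 28 in HT (5.08, 17.5 and 4.81 CPM) and 0, 2 and 17 in WT libraries (0, 0.368 and 2.91 CPM). All 3 HT libraries were above all 3 WT libraries, as for 4.29% of the 14367 genes tested, while KO overlapped with both. The log2 fold change of HT against WT was 3.08 (SE 1.33), running from 2.18 without HT replicate 2 to 5.48 without WT replicate 3. That of KO against HT was -1.83 (SE 1.26), running from -4.00 without KO replicate 2 to -0.92 without HT replicate 2. For KO against WT it was 1.25 (SE 1.28), running from -0.92 without KO replicate 2, a change of sign, to 3.66 without WT replicate 3.

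Hsd17b3, the testosterone-forming enzyme, was higher in every D2.5 library than in any embryonic one. At E16.5 it had 27, 6 and 64 counts in KO and 10, 7 and 59 in HT libraries. At E18.5 it had 75, 91 and 40 counts in KO and 56, 54 and 85 in HT libraries. The genotypes overlapped at both ages, with log2 fold changes of 0.31 (SE 1.08) and 0.22 (SE 0.31). The E16.5 value ran from -0.78 without KO replicate 3 to 1.93 without HT replicate 3, and that at E18.5 from -0.016 without KO replicate 2 to 0.49 without KO replicate 3. At E16.5 replicate 3 was highest in KO and in HT, as it was for the sum of Sertoli markers (76.1 and 71.7 CPM).

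At D2.5 Hsd17b3 had 35.8, 67.1 and 52.7 CPM in KO, against 30.7, 22.6 and 25.9 in HT and 18.2, 38.6 and 42.0 in WT cells. The means were 51.9 ± 15.6 CPM in KO, 26.4 ± 4.07 in HT and 32.9 ± 12.9 in WT cells (SD, n = 3 each). All KO libraries lay above all HT libraries, as for 5.83% of the 14367 genes tested, but KO and WT overlapped. The log2 fold change was 0.98 (SE 0.40) for KO against HT and 0.66 (SE 0.40) for KO against WT. The KO libraries with the most Hsd17b3, replicates 2 and 3, were those with Sertoli marker sums of 314 and 305 CPM. In replicate 1 a sum of 147 CPM, below all HT libraries, stood beside 35.8 CPM of Hsd17b3, above all HT libraries. The part of these markers in the Hsd17b3 values was not tested.

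**Figure D3:**
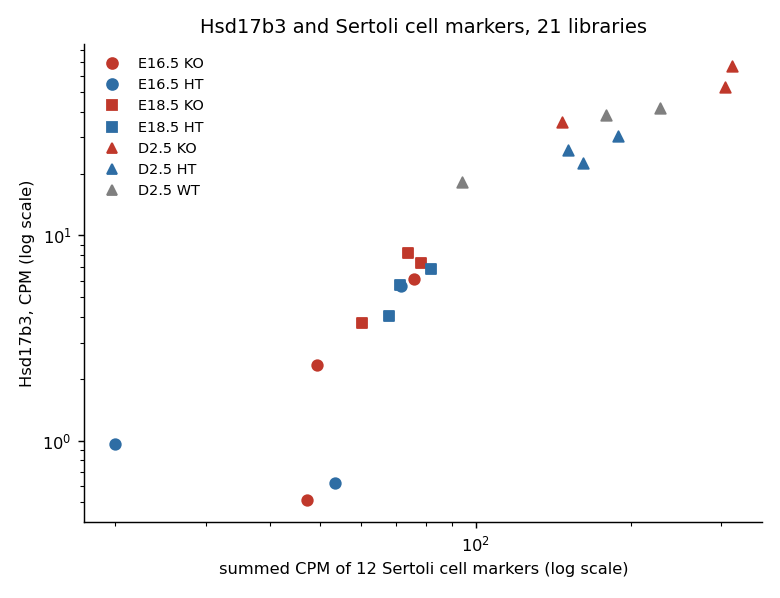
Hsd17b3 level (CPM, log axis) against the summed level of 12 Sertoli cell markers (CPM, log axis) in the 21 libraries, by age (shape) and genotype (colour). The D2.5 libraries lie at 94.3 to 314 CPM of markers and 18.2 to 67.1 CPM of Hsd17b3, all above the embryonic libraries, which lie at 19.98 to 81.9 and 0.511 to 8.21 CPM.

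Insl3 was close to absent. It had 0, 1 and 1 counts in KO and 2, 0 and 0 in HT libraries at E16.5, and 8, 2 and 0 in KO and 1, 1 and 4 in HT libraries at E18.5. At D2.5 it was at 0 in all 9 libraries, where a count of 0 allows levels of up to 0.457 to 0.556 CPM (3 counts per library). That limit holds for reads assigned to Insl3; how reads shared with Jak3 were assigned is not given in the sources used here. Jak3, which overlaps it, had 60, 21 and 25 counts in KO and 39, 59 and 48 in HT libraries at E18.5.

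Across all genes, 1 of 16185 tested (0.00618%) differed between KO and HT cells at E16.5, 2.14% of 18199 did at E18.5 and 0.153% of 14367 at D2.5 (edgeR quasi-likelihood test, Benjamini-Hochberg adjusted p under 0.05). The share was 0.216% for KO against WT and 0.00696% for HT against WT at D2.5. Of the 7 genes, 6 passed the low-count filter at E16.5 and E18.5 and 5 at D2.5, Insl3 at none. In edgeR and in DESeq2, 0 of them were called in these 5 comparisons. At an unadjusted p under 0.05 (edgeR) there were 0, 1, 2, 1 and 1 in the same order. Over all genes tested, 190 of 16185 at E16.5 and 1478 of 18199 at E18.5 were under that value. At D2.5 it was 1036, 1116 and 488 of 14367. Without the low-count filter, Hsd3b1 was called in KO against HT at D2.5. The genes were chosen with such results known, so these counts are given only as a description.

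**Figure D4:**
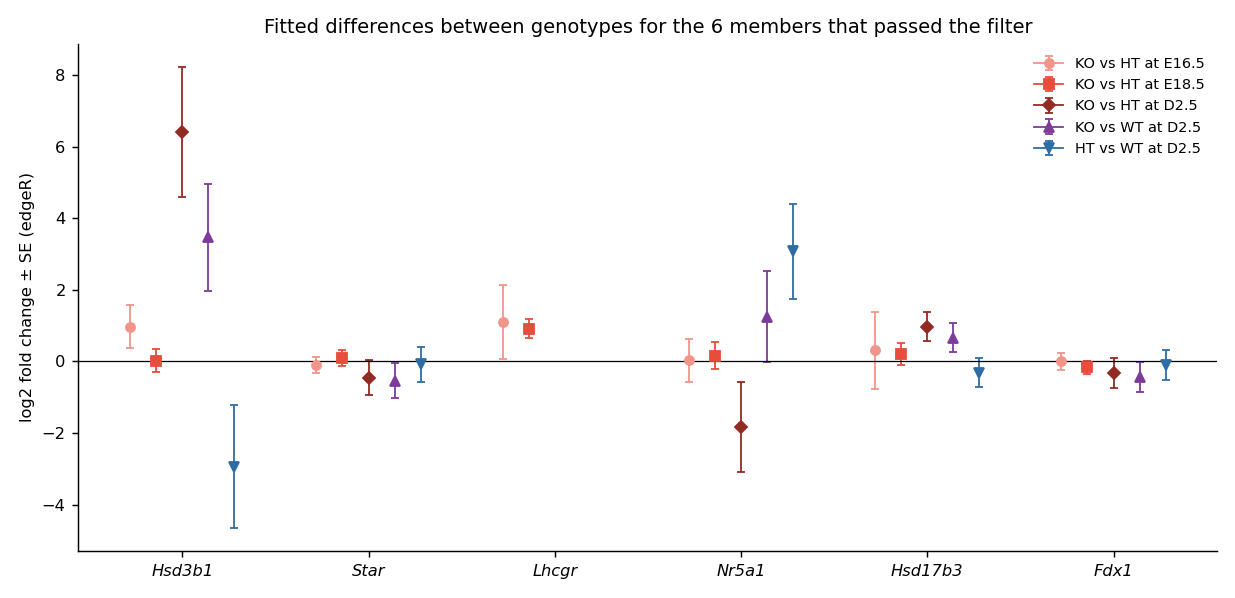
Fitted log2 fold change with its SE (edgeR) of the 6 genes that passed the filter, in the 5 genotype comparisons (5 genes at D2.5). Hsd3b1 at D2.5 has the largest values, 6.42 for KO against HT, where HT libraries held 2 counts in all; Star lies between -0.54 and 0.11, and Fdx1 between -0.43 and 0.00.

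With age, the 7 genes divided. Over KO and HT libraries together, Hsd3b1 averaged 6.79 CPM at E18.5 and 1.57 CPM at E16.5, and Nr5a1 3.09 and 1.14 CPM. For both, all 6 E18.5 libraries lay above all 6 E16.5 libraries, as for 16.9% of the 18815 genes tested. Lhcgr averaged 5.14 CPM at E18.5 and 1.35 CPM at E16.5, and Hsd17b3 5.98 and 2.70 CPM, with overlap. After E18.5 they went different ways. Hsd17b3 averaged 39.1 CPM at D2.5, with all 6 libraries above those of E18.5, as for 17.5% of genes tested. Star averaged 19.8 CPM at D2.5 and 9.79 CPM at E18.5, and Lhcgr 0.948 and 5.14 CPM. Hsd3b1 means differed by genotype, at 11.5 CPM in D2.5 KO against 6.88 in E18.5 KO cells, and 0.115 in D2.5 HT against 6.70 in E18.5 HT cells. Hsd3b1 overlapped between the KO libraries of the 2 ages, which ran from 0 to 22.98 CPM at D2.5 and from 4.15 to 11.6 CPM at E18.5. Its fitted change of -2.49 (SE 0.83, log2) averages a KO mean that was higher at D2.5 and an HT mean that was lower, and the difference between them was not tested. In these fits 1 of 6 genes was called for E18.5 against E16.5 (32.8% of 18815 genes tested) and 4 of 6 for D2.5 against E18.5 (68.9%). The first count depended on the setting: 4 of 6 with DESeq2, 3 of 6 with the replicate block and 2 of 7 without a filter. The second was 4 of 6 with DESeq2 and the replicate block, and 5 of 7 without a filter. Over all genes, the other settings called 5468 to 7241 in the first comparison (6164 in the full fit) and 11117 to 14416 in the second (12963). Of 12 Sertoli and 10 stromal markers, 5 and 8 were higher at E18.5 than at E16.5 and 0 lower. At D2.5 against E18.5, 5 and 4 were higher and 0 and 2 lower. Over all genes tested, 17.3% were higher and 15.5% lower in the first comparison, and 25.6% and 43.3% in the second. Of 10 germ cell markers 0 were higher and 6 lower at E18.5 than at E16.5, and 3 higher and 6 lower at D2.5 than at E18.5. Their summed level was 4870 to 7293 CPM in D2.5 KO libraries, against 3229 to 4110 CPM in E18.5 KO libraries, and 5966 to 6363 CPM in D2.5 HT libraries, against 3695 to 4043 CPM in E18.5 HT libraries. Their part in the courses of the 7 genes was not tested.

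The other genes of the pathway came from 4 lists with 70 genes in the tables, which do not include the 7. They are steroid enzymes and their electron donors, genes of cholesterol supply, Leydig cell regulators and markers, and cAMP signalling after the LH receptor, the last with the ferredoxin gene Fdx2. In KO against HT, 0 of 53 tested passed at E16.5, 3 of 61 (4.92%) at E18.5 and 0 of 56 at D2.5. Over all genes tested, 0.00618%, 2.14% and 0.153% passed in the same order. At D2.5, 0 of 56 passed for KO against WT and 0 for HT against WT. The 3 comparisons at D2.5 had 6, 4 and 1 genes at an unadjusted p under 0.05 (edgeR), beside 1036, 1116 and 488 of all 14367 tested. That at E16.5 had 1, beside 190 of 16185, and that at E18.5 had 6, beside 1478 of 18199. DESeq2 also called 0 listed genes in the 3 comparisons at D2.5 and at E16.5. For KO against HT the lists together had a median log2 fold change of -0.05, -0.06 and -0.12 in order of age, beside -0.01, 0.00 and 0.00 over all genes tested.

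The enzymes upstream of and beside Hsd3b1 were the first of these. Cyp11a1, which starts steroid synthesis, had 137, 154 and 119 counts in KO and 91, 170 and 95 in HT libraries at E18.5 (log2 fold change 0.37, SE 0.22, edgeR adjusted p = 0.78). At D2.5 it had 1, 7 and 12 counts in KO, 0, 0 and 27 in HT and 28, 0 and 1 in WT libraries, so a single library held most of the counts in HT and in WT. Cyp17a1, the enzyme between HSD3B and HSD17B3, had 0, 16 and 0 counts in KO, 9, 47 and 1 in HT and 4, 8 and 14 in WT libraries at D2.5. The KO library with the most Hsd3b1, replicate 2, was the only KO library with Cyp17a1 counts at D2.5, and both genes were at 0 in replicate 1.

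The 3 genes that passed at E18.5 were 2 that rose and 1 that fell in KO cells, in the libraries where macrophage and blood markers were also higher in KO. Of the 61 listed genes tested, these were 3.28% higher and 1.64% lower, beside 2.07% and 0.0659% over all genes tested. Akr1c14, a 3 alpha-hydroxysteroid dehydrogenase, had 21.9, 17.9 and 20.4 CPM in KO, against 4.21, 5.22 and 3.45 CPM in HT cells, higher by 2.21 on the log2 scale (SE 0.22, edgeR adjusted p = 5.14e-05). Mc2r, the receptor for the pituitary hormone ACTH, had 30, 36 and 30 counts in KO, against 6, 9 and 6 in HT libraries (log2 fold change 2.32, SE 0.40, edgeR adjusted p = 0.0042). Akr1b7, an aldo-keto reductase known from the adrenal, had 2.92, 3.25 and 4.04 CPM in KO, against 9.44, 7.24 and 6.82 in HT cells (log2 fold change -1.20, SE 0.26, edgeR adjusted p = 0.0235). The Akr1b7 call ended when any library other than KO replicate 3 was left out, and those of Akr1c14 and Mc2r remained without each library. At D2.5 Mc2r had 36, 51 and 2 counts in KO, 0, 0 and 1 in HT and 0, 0 and 0 in WT libraries, where it did not pass the low-count filter and was not tested.

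With age, 20 of 63 listed genes tested changed for E18.5 against E16.5, 12 upward and 8 downward, and 38 for D2.5 against E18.5, 18 upward and 20 downward. These were 31.7% and 60.3% of the listed genes tested, near or below the 32.8% and 68.9% of all genes tested. Over all genes, 17.3% changed upward and 15.5% downward in the first comparison, and 25.6% and 43.3% in the second. The number for E18.5 against E16.5 ran from 9 without E16.5 KO replicate 1 to 27 without E16.5 HT replicate 3. The median log2 change of all genes tested was 0.13 and -0.59 in these comparisons, and of the lists 0.42 and -0.14. At E18.5 Hsd3b6 rose to 2.08 CPM, against 0.233 CPM at E16.5 (log2 fold change 3.10, SE 0.74, edgeR adjusted p = 0.00491). Nr2f2, a nuclear receptor of interstitial cells, rose to 4.05 CPM, against 0.988 CPM at E16.5, and Nr0b1, a repressor partner of NR5A1, rose to 2.71 CPM, against 0.828 CPM. Cyb5a, the cytochrome b5 that aids CYP17A1, fell to 17.4 CPM, against 34.9 CPM at E16.5.

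In the enzyme list, 9 of 17 tested (52.9%) were lower at D2.5 than at E18.5 and 2 (11.8%) higher, beside 43.3% lower and 25.6% higher over all genes tested. The median log2 change of the list was -1.36, beside -0.59 over all genes. Fdxr, the reductase that loads FDX1 with electrons, fell to 1.31 CPM at D2.5, against 26.0 CPM at E18.5 (log2 fold change -4.31, SE 0.37, edgeR adjusted p = 3.59e-09), while Fdx1 itself averaged 28.8 and 26.5 CPM. Cyp11a1 fell to 1.39 CPM, against 11.3 CPM (adjusted p = 0.00199), and Cyp19a1, the aromatase, to 0.449 CPM, against 12.4 CPM (adjusted p = 1.75e-05). Srd5a1, a 5 alpha-reductase, fell to 4.82 CPM, against 21.9 CPM at E18.5. Hsd17b12, which acts mainly in fatty acid elongation, rose to 53.6 CPM, against 10.4 CPM.

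Of 13 genes of cholesterol supply tested, 5 were higher and 5 lower at D2.5 than at E18.5 (38.5% each), beside the 25.6% and 43.3% of all genes. Stard4, a cytosolic sterol carrier, rose to 72.0 CPM at D2.5, against 20.2 CPM at E18.5. Tspo, a protein of the outer mitochondrial membrane, fell to 0.350 CPM, against 4.05 CPM, and Lipe, the hormone-sensitive lipase, to 3.99 CPM, against 21.7 CPM. Among 20 regulators tested 6 rose (30%) and 4 fell (20%), and in the cAMP list 5 of 13 rose (38.5%) and 2 fell (15.4%). Over all genes tested, 25.6% rose and 43.3% fell. Nr5a2, the relative of Nr5a1 that is also known from pluripotent cells, rose to 179 CPM, against 8.45 CPM, and Rxfp2, the receptor of INSL3, fell to 2.56 CPM, against 19.8 CPM. In the cAMP list Gnas, the stimulatory G protein subunit, rose to 115 CPM, against 29.5 CPM, and Adcy6, an adenylate cyclase, fell to 7.78 CPM, against 57.3 CPM.

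Genes with the most similar pattern were found by the root mean square difference of gene-centred log2 CPM over the 21 libraries, among 16915 genes with a mean of at least 1 CPM. Hsd3b1, with an SD over the libraries of 2.43, was nearest to Defb29 (1.08), a beta-defensin gene, Serpina3b (1.22) and Traf3ip3 (1.23). At D2.5 Defb29 had 0, 21 and 105 counts in KO, 0, 0 and 0 in HT and 0, 0 and 1 in WT libraries. Both genes were at 0 in KO replicate 1, but Hsd3b1 was higher in KO replicate 2 and Defb29 in KO replicate 3. The nearest of the 7 genes to Hsd3b1 was Lhcgr, at rank 2696. Hsd17b3 was nearest to Gja1 (0.676), the gap junction protein connexin 43, Kitl (0.683), the ligand of the receptor KIT and one of the 12 Sertoli markers, and Bcl2 (0.700), an inhibitor of apoptosis. Lhcgr was nearest to Ptges (0.792), Nrg3 (0.829) and Nalcn (0.856), and Nr5a1 to Sspn (1.00), Slc22a4 (1.03) and Srpk3 (1.10). Star was nearest to Agfg1, Rttn and Rprd1b (0.232 to 0.253), and Fdx1 to Tmtc1, Exoc6 and Arhgap32 (0.267 to 0.291). The nearest of the 7 to Nr5a1 was Fdx1, at rank 1111, the best rank of any pair of the 7 compared. Their difference was 1.59, beside an SD over the libraries of 1.65 for Nr5a1 and 0.343 for Fdx1. By the difference itself Star and Fdx1 were the closest pair (0.558), at ranks 1849 and 1700. Insl3 was not among the genes compared.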

How the data were processed

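RNA of sorted germ cells was extracted with a PicoPure kit and made into libraries with NuGEN Ovation kits, per the labels' protocols. The deposited values used are whole-number read counts per gene, not normalized, in 3 tables for 21 libraries; per the submitters' processing notes, featureCounts, edgeR, Bowtie and STAR were used with mm9, with versions, roles, strand setting and the handling of shared reads not given in the sources used here. Rows for 1217 repeats, which took 41.9% to 69.4% of each library's table total, were left out of library sizes and tests, and the repeat family tables were not used. No library pair was identical.

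Counts were fitted with edgeR 4.0.16 in R 4.3.3 (filterByExpr by group, minimum count 10 and minimum total 15; TMM over gene rows; quasi-likelihood, two-sided; Benjamini-Hochberg over all genes tested; threshold 0.05). The embryonic ages had a fit each, D2.5 one of all 9 libraries, and ages were compared in 18 KO and HT libraries as the mean of both genotypes' differences. The biological coefficient of variation of these fits was 37.3%, 17.9%, 55.4% and 40.4%, in that order. CPM levels used factors over all 21 libraries, and intervals of pooled ratios are exact at 95%. Fits were tested on simulated data. DESeq2 1.42.0, RLE factors, other filters, a replicate block and leaving out each library were the alternatives. Same-numbered libraries were not shown to be paired. Shared 31-base words came from GENCODE M21 transcripts. Figures used Python 3.11.15 and matplotlib 3.10.9.

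The 7 genes and all lists were chosen with earlier results of these data known. Of the other lists, genes passing in a comparison were eligible to be named, up to 6 per list and comparison by adjusted p, with Cyp11a1, Cyp17a1 and Hsd3b6 in any case, and the 3 nearest patterns per gene. Hsd3b3 and Jak3 values beside Hsd3b1 and Insl3, and which eligible genes are described, were chosen after their values were seen. Values of some listed genes are not reported here.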

Additional observations from a re-analysis of the deposited data

How the results depend on the processing

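The calls of the 7 genes in the 5 genotype comparisons stayed at 0 under other scaling factors, a stricter filter, DESeq2 and the replicate block, and Hsd3b1 alone was called without a filter. Counts over all genes moved more: KO against HT at E16.5, 1 gene, became 6 with DESeq2 and 2 with the replicate block. At D2.5, KO against HT (22) became 109 without a filter and 126 with DESeq2, KO against WT (31) became 110 and 123, and HT against WT (1) became 4 and 2. Leaving out each library gave 197 to 392 calls for KO against HT at E18.5 (389), 14 to 24 and 19 to 30 for KO against HT and against WT at D2.5, and 1 to 2 for HT against WT. The listed pathway genes called ran from 2 to 5 at E18.5 (3 in the full fit) and from 9 to 27 for E18.5 against E16.5 (20). The cause of these moves was not tested.

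Some genes changed sign, low ones and better counted ones (log2 fold changes, lowest to highest as each library was left out). For KO against HT, Cyp11a1 at E16.5 ran from -0.17 without KO replicate 3 to 1.63, and Hsd3b6 at E18.5 from -0.57 without KO replicate 2 and -0.18 without HT replicate 3 to 0.29. At D2.5 Cyp11a1 ran from -1.05 to 5.84 without HT replicate 3, with 0.18 without KO replicate 1, and Cyp17a1 from -7.12 to 0.15 without HT replicate 2. For KO against WT, Cyp11a1 ran from -1.21 to 3.55 without WT replicate 1, with 0.04 without KO replicate 1. For HT against WT, Cyp11a1 ran from -6.31 to 3.88 without WT replicate 1, with 0.43 and 0.44 without HT replicate 1 or HT replicate 2, and Cyp17a1 from -0.76 without HT replicate 2 to 1.54. Cyp17a1 at D2.5 against E18.5 ran from -1.64 without D2.5 KO replicate 2 to 2.29. For the 7 genes, none of them called in the full fits of the genotype comparisons, 11 of 27 fitted genotype differences took either sign as each library was left out. Among them were Hsd17b3 at E16.5 (-0.78 to 1.93), Fdx1 at E16.5 (-0.16 to 0.18) and Star at E18.5 (-0.04 to 0.27). With the replicate block, Hsd3b6 at E18.5 became -0.021, Cyp11a1 for KO against HT at D2.5 became 1.12 and Cyp17a1 for HT against WT -0.25.

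Same-numbered KO and HT libraries had correlations of their deviations of 0.573, -0.138 and 0.753 at E16.5, 0.204, 0.125 and 0.0906 at E18.5 and 0.0341, -0.017 and 0.0273 at D2.5. Differently numbered KO and HT libraries had -0.709 to 0.509 at E16.5, -0.217 to 0.0981 at E18.5 and -0.0534 to 0.0300 at D2.5. The labels do not say what the numbers mark, so they were not taken to pair the samples, and the replicate block was an alternative. Gene totals of 6063632 to 7391401 at D2.5 put 3 counts of Insl3, Lhcgr or Hsd3b6 at the limit of what could be measured. Each group had 3 libraries, and the edgeR p-values rest on a spread between libraries estimated over the whole fit and shared in part between genes. The fits held 6 libraries at each embryonic age, 9 at D2.5 and 18 for the ages.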
